A study of Mus musculus with 24 samples.

Results

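The genes described here are 50 genes of mitosis, the stage of the cell cycle in which the duplicated chromosomes are parted and the cell divides. They were followed in cultured mouse ovarian surface epithelial (mOSE) cells, which in the animal form the single layer covering the ovary. The members were taken from a list of gene symbols, and each of the 50 was found in the 3 deposited expression tables, which hold 35687 or 35688 genes each. The list was chosen with earlier results of these data known, so counts of its members are not independent of the data. Poly(A)-selected RNA was measured in 24 libraries that form 8 groups of 3. Of these, 12 libraries of the line m1102 make up the monolayer and spheroid experiment: spheroids in low-attachment culture after TGFB1, untreated spheroids, attached monolayers with TGFB1, and untreated monolayers. TGFB1, the cytokine transforming growth factor beta 1, was used at 10 ng/mL, and spheroid cells received it over 4 days before they were put into low-attachment culture. A further 6 libraries of m1102 monolayers carried a lentivirus with Snail, the transcription factor encoded by Snai1, or the WPI vector without it as the control. The last 6 libraries came from a line of cells from mice with floxed BRCA1 alleles (mOSE_BRCA1_fl), which received adenoviral Cre to delete the floxed sequence (BRCA1_ko) or adenoviral GFP as the control (BRCA1_wt). All BRCA1_wt cells carry the floxed alleles too. The labels describe 1 line per experiment and leave unsaid whether replicate libraries come from separate cultures, so p-values reflect no more than the spread among them, which may be technical. The titles of the 6 monolayer libraries mark them as earlier data analysed again, and those of the spheroid libraries do not, so spheroid growth and newer data cannot be told apart. The labels of untreated monolayers 1 and 2 point to 1 earlier sample, yet none of the 50 members has the same value in both.

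Entry into mitosis is driven by the kinase CDK1 bound to cyclin A2 or a B-type cyclin. Polo-like kinase 1 and the aurora kinases then direct the building of the spindle, and the spindle assembly checkpoint holds the cell back until every kinetochore is attached. The anaphase-promoting complex with CDC20 ends this hold by marking securin and cyclin B for degradation, after which separase cuts cohesin and the cytokinesis proteins divide the cell. Transcripts of most of these genes are low in resting cells and climb in G2, through promoter elements named CHR (cell cycle genes homology region) and CCAAT boxes, which are bound by the MuvB complexes with B-MYB and FOXM1 and by NF-Y. Levels are given here in scaled TPM, the deposited TPM, an abundance corrected for transcript length, with a factor per library that leaves column sums other than 1000000. A member is said to have risen or fallen where limma gave a Benjamini-Hochberg adjusted p under 0.05 over all genes tested. Log2 fold changes are of scaled TPM + 1 and carry ± SE, and levels carry ± SD, with n = 3 libraries in each group.

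The values of a library depend on what else it holds. Summed scaled TPM ran from 955433 to 1166749 in the monolayer and spheroid table, from 983449 to 1021026 in the Snail table and from 796668 to 1810667 in the BRCA1 table, where BRCA1_wt 3 and BRCA1_wt 1 were the highest. The read depth is unknown, because the files hold no counts. Mitochondrial genes took 13.9% of the signal in TGFB1 spheroid 2 and 12.1% in TGFB1 spheroid 3, against 6.60% to 8.68% in the other 10 libraries of that table, and 15.3% in BRCA1_wt 3. Snai1 stood at 234, 195 and 193 scaled TPM in the Snail libraries and at 13.7, 10.1 and 9.81 in the WPI libraries. Brca1 stood at 5.34, 11.1 and 4.09 scaled TPM in the libraries labelled BRCA1_ko, against 4.27, 12.3 and 3.66 in those labelled BRCA1_wt (adjusted p = 0.904). A value summed over the whole gene does not check the deletion of a floxed part, so the genotype rests on the labels. Of 13 ovarian surface and mesothelial markers, 12 were at 1 or more in all 3 libraries of each BRCA1 group and 11 in each Snail, WPI and untreated monolayer group, while Krt8 and Lhx9 were near 0 in m1102. The summed level of those 13 markers was 234 to 451 scaled TPM in TGFB1 spheroids and 278 to 472 in untreated spheroids, against 1151 to 1528 in TGFB1 monolayers and 2254 to 2391 in untreated monolayers. Among leukocyte markers, Ptprc, Cd3e, Adgre1 and Lyz2 averaged at most 0.342 scaled TPM in any group. Cd68, a lysosomal protein of macrophages, averaged 41.99 in TGFB1 spheroids, 47.4 in untreated spheroids, 8.61 in TGFB1 monolayers and 22.2 in untreated monolayers, and Csf1r, a receptor of macrophages, averaged 6.28 in BRCA1_ko and 7.33 in BRCA1_wt libraries.

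All 50 members were lower in untreated spheroids than in untreated monolayers. Levels in spheroids had a median of 5.26% of the monolayer level, and the 3 spheroid values lay below the 3 monolayer values for each of the 50, as they did for 32.5% of all genes tested. In limma, 50 members fell and 0 rose, where 27.7% of the 13509 genes tested fell and 27.6% rose. The median log2 fold change was -3.31 over the members and 0.0061 over all genes tested. In these bulk libraries, fewer dividing cells and less RNA of each gene per cell cannot be told apart. The 50 passed the filter on low values, of at least 1 scaled TPM in at least 3 libraries. Of these, 7 passed only through the monolayers, where they were high, and so had to differ: Cdc25c, Cenpe, Cenpf, Espl1, Kif11, Kif18b and Dlgap5 reached 1 in fewer than 3 of the 6 spheroid libraries. Of the members, 35 were at 1 or more in all 3 untreated spheroids and 11 were under 1 in each of them, where the added 1 makes a log2 fold change understate the fall. Beside the ovarian surface markers, the fibroblast and stroma sum was 271 to 285 scaled TPM in untreated spheroids and 1511 to 1715 in untreated monolayers. Dcn (means of 245 and 1332) and Thy1 (23.8 and 282) carried it, while Pdgfra (7.80 and 6.21) and Col6a3 (1.74 and 0.018) were higher in untreated spheroids. The oocyte sum was 1.69 to 2.94 in untreated spheroids and 10.3 to 23.8 in untreated monolayers. Ddx4 (means of 0.35 and 18.8) carried its difference, while Gdf9 (1.75 and 0.26) was higher in untreated spheroids. The granulosa and theca sum was 64.9 to 68.2 in untreated spheroids and 32.98 to 36.99 in untreated monolayers, the endothelial sum 2.54 to 7.12 and 1.12 to 1.25, and the oviductal sum 6.08 to 19.9 and 2.21 to 4.19 in the same groups; the part of these sums in the result was not tested.

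**Figure D1:**
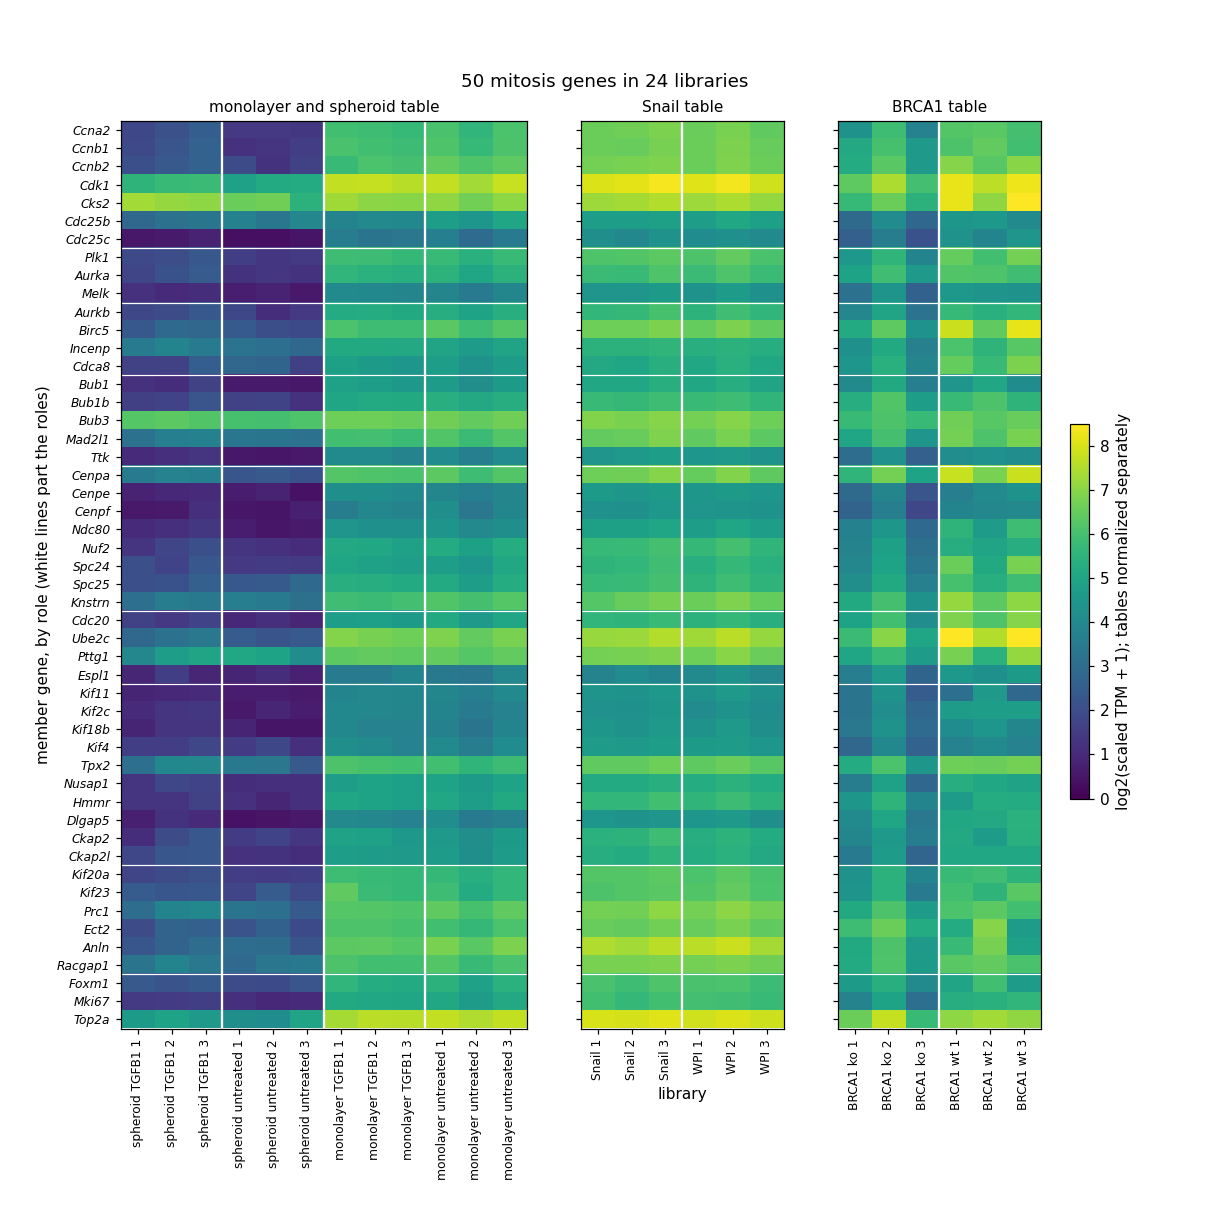
Log2(scaled TPM + 1) of the 50 mitosis genes (vertical axis, grouped by role) in each of the 24 libraries (horizontal axis), in 3 panels because the tables were normalized separately. The 6 spheroid columns are darker than the 6 monolayer columns for most genes, Cdk1 among them, while Cks2 and Bub3 stay bright. BRCA1_ko 2 is brighter than BRCA1_ko 1 and BRCA1_ko 3.

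The cyclins were among the members that fell most. Ccnb2 (ENSMUSG00000032218), 1 of the B-type cyclins, had 2.902, 1.35 and 2.12 scaled TPM in untreated spheroids and 86.5, 70.96 and 82.8 in untreated monolayers (log2 fold change -4.72 ± 0.20, adjusted p = 3.08e-08). Ccnb1 (ENSMUSG00000041431), which with CDK1 triggers entry into mitosis, had 1.29, 1.45 and 1.94 scaled TPM in untreated spheroids and 71.1, 50.9 and 69.3 in untreated monolayers (-4.65 ± 0.19, adjusted p = 3.08e-08). Ccna2, the cyclin of S phase and G2, stood at 1.64 ± 0.0468 scaled TPM in untreated spheroids and 59.9 ± 10.9 in untreated monolayers, or 2.74% of the monolayer level. These 3 genes were nearly silent in spheroids, and no spheroid library came near any monolayer library. Cdk1 itself, their partner kinase, fell less and kept 33.4 ± 4.41 scaled TPM in untreated spheroids, against 197 ± 33.4 in untreated monolayers (-2.52 ± 0.14, adjusted p = 2.06e-07). The smallest changes of the group belonged to Cdc25b, a phosphatase that activates CDK1, and to Cks2, a small subunit that binds CDK1. Cdc25b had 12.5, 9.196 and 14.2 scaled TPM in untreated spheroids and 25.6, 21.2 and 30.9 in untreated monolayers (-1.06 ± 0.18, adjusted p = 0.000506). Cks2 had 93.7, 100.3 and 43.5 scaled TPM in untreated spheroids and 134, 103 and 133 in untreated monolayers (-0.71 ± 0.26, adjusted p = 0.0357). Cks2 is the member whose call did not hold: without untreated monolayer 1, without untreated monolayer 3 or without untreated spheroid 3, it was no longer called and 49 members fell.

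Promoter windows of 300 bases, from 250 before to 50 after the annotated start, were taken from RefSeq on GRCm38.p6 for 41 of the 50 members, with 44 windows because Bub3, Ect2 and Prc1 have 2 starts each. The remaining 9, Ccna2, Cdc25c, Aurkb, Incenp, Spc24, Tpx2, Dlgap5, Kif20a and Foxm1, have no window here. The CHR was searched as TTTGAA or TTCGAA and the CCAAT box as CCAAT, on both strands, and a match of one can share at most 1 base with a match of the other. A CHR match was present in 34 of the 44 windows (77.3%) and in 19.2% of all 32851 RefSeq windows of the same length. CCAAT was present in 77.3% of the member windows and in 37.4% of all windows, at least 2 CCAAT in 52.3% and 11.7%, and both motifs in 70.5% and 7.52%. In 30 windows a CHR match began between 60 bases before and 50 after the start. The share of all RefSeq windows with a match in this place was not counted. A match describes the letters only and is not shown to be a bound site. The windows below belong to the members on which the spheroid and TGFB1 results turn, and to Bub3 as the member that changed least. Capitals mark the CHR and CCAAT matches, read on the gene's strand, so that a match on the other strand appears as TTCAAA or ATTGG.
Ccnb2 (chr9:70421505-70421804, minus strand): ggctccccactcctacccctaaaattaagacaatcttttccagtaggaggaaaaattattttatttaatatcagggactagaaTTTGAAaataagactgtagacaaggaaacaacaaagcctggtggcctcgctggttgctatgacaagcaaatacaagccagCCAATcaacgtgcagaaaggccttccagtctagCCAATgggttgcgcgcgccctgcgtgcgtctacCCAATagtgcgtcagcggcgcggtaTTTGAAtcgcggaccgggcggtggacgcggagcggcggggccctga
Ccnb1 (chr13:100786437-100786736, minus strand): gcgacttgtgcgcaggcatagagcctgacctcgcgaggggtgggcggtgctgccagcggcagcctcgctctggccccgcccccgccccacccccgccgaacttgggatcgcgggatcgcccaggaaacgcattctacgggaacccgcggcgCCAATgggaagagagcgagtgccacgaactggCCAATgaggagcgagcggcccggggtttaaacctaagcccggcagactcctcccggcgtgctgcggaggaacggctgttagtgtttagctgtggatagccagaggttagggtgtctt
Ube2c (chr2:164769679-164769978, plus strand): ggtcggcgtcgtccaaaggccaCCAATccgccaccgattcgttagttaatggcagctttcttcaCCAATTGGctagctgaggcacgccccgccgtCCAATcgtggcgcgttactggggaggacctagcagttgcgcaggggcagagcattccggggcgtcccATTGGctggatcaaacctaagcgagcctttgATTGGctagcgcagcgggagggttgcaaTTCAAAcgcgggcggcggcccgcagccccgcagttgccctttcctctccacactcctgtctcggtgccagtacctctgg
Plk1 (chr7:122159185-122159484, plus strand): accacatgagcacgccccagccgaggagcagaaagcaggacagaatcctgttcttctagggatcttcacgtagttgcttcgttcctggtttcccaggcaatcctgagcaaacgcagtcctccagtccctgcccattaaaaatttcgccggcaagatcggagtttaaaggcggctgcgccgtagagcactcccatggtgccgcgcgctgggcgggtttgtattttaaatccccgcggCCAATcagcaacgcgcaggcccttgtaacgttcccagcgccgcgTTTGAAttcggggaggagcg
Cenpa (chr5:30666636-30666935, plus strand): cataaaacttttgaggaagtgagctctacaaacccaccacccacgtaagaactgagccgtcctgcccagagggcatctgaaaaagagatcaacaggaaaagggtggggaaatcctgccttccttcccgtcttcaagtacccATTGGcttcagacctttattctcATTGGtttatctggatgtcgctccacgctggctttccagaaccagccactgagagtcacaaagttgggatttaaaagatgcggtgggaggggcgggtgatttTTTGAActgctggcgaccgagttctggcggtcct
Cdc20 (chr4:118437294-118437593, minus strand): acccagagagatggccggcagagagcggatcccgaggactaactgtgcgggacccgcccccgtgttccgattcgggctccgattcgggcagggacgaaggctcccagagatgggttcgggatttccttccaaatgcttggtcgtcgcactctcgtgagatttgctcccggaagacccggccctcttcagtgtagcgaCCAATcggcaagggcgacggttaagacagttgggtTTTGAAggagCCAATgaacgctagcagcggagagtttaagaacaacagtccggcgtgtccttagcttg
Bub3 (chr7:131560120-131560419, plus strand): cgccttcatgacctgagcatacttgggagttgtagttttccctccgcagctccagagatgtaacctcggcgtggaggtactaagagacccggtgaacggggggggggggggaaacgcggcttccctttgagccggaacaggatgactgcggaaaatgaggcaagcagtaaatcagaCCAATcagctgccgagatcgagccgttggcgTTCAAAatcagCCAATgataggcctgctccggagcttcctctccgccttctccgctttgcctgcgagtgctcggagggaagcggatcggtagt
Ccnb2 holds a CHR match 5 bases after its start behind CCAAT matches at 87, 54 and 21 bases before it. Ccnb1, which fell about as far, holds CCAAT matches but no CHR match in this window. Bub3, which fell least, holds a CHR match between CCAAT matches, as Cdc20 does.

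**Figure D2:**
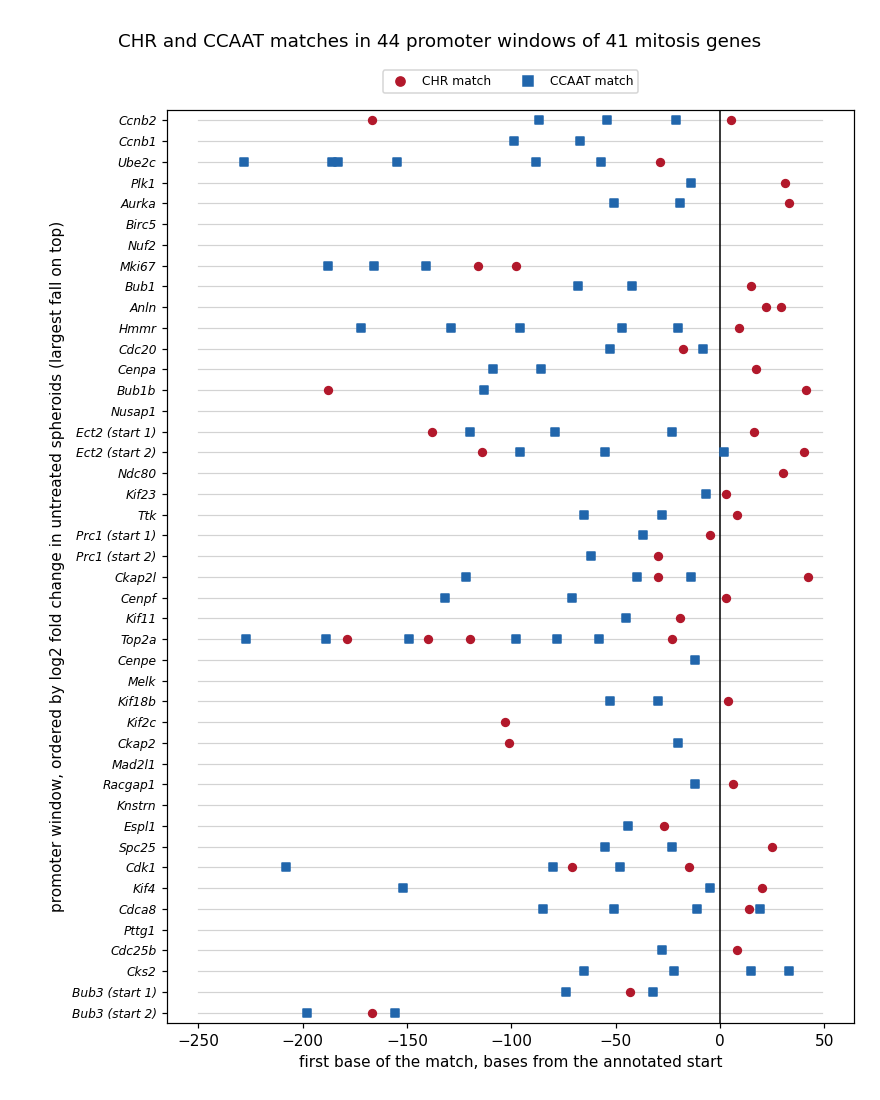
Position of CHR matches (red circles) and CCAAT matches (blue squares) in the 44 promoter windows of 41 members, in bases from the annotated start (horizontal axis), with windows ordered from the largest fall in untreated spheroids at the top to the smallest. CHR matches lie on both sides of the start, and most CCAAT matches before it, in genes along the whole order. A CHR match is held by 31 members and a CCAAT match by 31.

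The kinase genes fell to a few percent of their monolayer level. Plk1, the polo-like kinase that acts at entry, at the spindle and at cytokinesis, had 1.995, 1.52 and 1.71 scaled TPM in untreated spheroids and 51.7, 40.8 and 52.7 in untreated monolayers (-4.16 ± 0.14, adjusted p = 1.33e-08). Aurka, the aurora kinase of the spindle poles, had 1.36, 1.53 and 1.39 scaled TPM in untreated spheroids and 44.6, 32.004 and 43.4 in untreated monolayers (-4.06 ± 0.17, adjusted p = 3.54e-08). Melk, a kinase raised in dividing cells, averaged 0.625 scaled TPM in untreated spheroids and 12.5 in untreated monolayers. The 4 genes of the chromosomal passenger complex, which corrects faulty attachments, did not fall evenly. Birc5, which encodes survivin, had 4.31, 3.09 and 2.78 scaled TPM in untreated spheroids and 79.7, 56.8 and 74.4 in untreated monolayers (-4.02 ± 0.18, adjusted p = 4.94e-08). Aurkb, the kinase of the complex, had 2.59, 1.14 and 1.65 scaled TPM in untreated spheroids and 38.01, 29.4 and 38.8 in untreated monolayers (-3.72 ± 0.19, adjusted p = 1.44e-07). The kinase and survivin thus reached 5.07% and 4.83% of the monolayer level. The scaffold gene Incenp kept 26.1% of its monolayer level, with a log2 fold change of -1.81 ± 0.13, and Cdca8, which encodes borealin, kept 19.8% with -2.20 ± 0.32.

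Among the spindle assembly checkpoint genes, Bub1, a kinase recruited to unattached kinetochores, had 0.525, 0.533 and 0.463 scaled TPM in untreated spheroids and 24.3, 17.4 and 23.6 in untreated monolayers (-3.90 ± 0.17, adjusted p = 4.66e-08). Bub1b, which encodes the checkpoint protein BUBR1, had 2.18, 2.36 and 1.303 scaled TPM in untreated spheroids and 39.8, 34.04 and 38.7 in untreated monolayers (-3.72 ± 0.18, adjusted p = 7.5e-08). The kinase gene Ttk and Mad2l1, whose product inhibits CDC20, fell too, with log2 fold changes of -3.40 and -2.80. Bub3, the partner of both BUB kinases, stood apart from them. It had 63.98, 62.03 and 71.1 scaled TPM in untreated spheroids and 100.3, 87.8 and 99.6 in untreated monolayers, 68.5% of the monolayer level and the smallest fall of the 50 (-0.54 ± 0.081, adjusted p = 0.000232).

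All 8 centromere and kinetochore genes fell, with log2 fold changes between -3.92 and -2.54. Nuf2, a subunit of the NDC80 complex that holds microtubules, had 1.45, 1.31 and 1.103 scaled TPM in untreated spheroids and 36.9, 27.3 and 37.2 in untreated monolayers (-3.92 ± 0.19, adjusted p = 8.33e-08). Cenpa, the histone H3 variant that marks centromeres, had 3.89, 4.14 and 3.39 scaled TPM in untreated spheroids and 80.6, 57.2 and 74.1 in untreated monolayers (-3.89 ± 0.13, adjusted p = 1.33e-08). The other subunits of the NDC80 complex, Ndc80, Spc24 and Spc25, reached 2.92%, 6.505% and 14.8% of their monolayer levels. Spc25 thus kept the largest share of the 4 subunits of that complex. Of the genes that act with the anaphase-promoting complex, Ube2c, its ubiquitin-conjugating enzyme, had 4.61, 3.57 and 4.17 scaled TPM in untreated spheroids and 114, 86.7 and 109.6 in untreated monolayers (-4.35 ± 0.15, adjusted p = 1.4e-08). Cdc20, its activator, had 0.937, 1.25 and 0.901 scaled TPM in untreated spheroids and 34.9, 22.7 and 30.6 in untreated monolayers (-3.89 ± 0.15, adjusted p = 2.61e-08). Pttg1, which encodes securin, fell less than its target separase, the product of Espl1. Pttg1 kept 31.5% of its monolayer level, with 32.8, 29.3 and 16.3 scaled TPM in untreated spheroids and 85.9, 76.1 and 86.7 in untreated monolayers, and Espl1 kept 8.11%.

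The 10 spindle motors and microtubule proteins fell with log2 fold changes between -3.89 and -2.42. Hmmr, a microtubule-binding protein of the spindle, had 1.29, 0.9001 and 1.27 scaled TPM in untreated spheroids and 33.2, 25.6 and 34.6 in untreated monolayers (-3.89 ± 0.15, adjusted p = 2.38e-08). Nusap1, a spindle protein that bundles microtubules, had 1.19, 1.25 and 1.29 scaled TPM in untreated spheroids and 29.6, 23.5 and 29.8 in untreated monolayers (-3.67 ± 0.14, adjusted p = 2.39e-08). Kif11, the motor that pushes spindle poles apart, is listed under 2 identifiers with identical values, and the 1 present in GENCODE M21 (ENSMUSG00000012443) was used. Of the 6 cytokinesis genes, Kif20a, a kinesin of the central spindle, had 1.94, 1.88 and 1.99 scaled TPM in untreated spheroids and 49.8, 40.1 and 48.4 in untreated monolayers (-4.00 ± 0.11, adjusted p = 7.92e-09). Anln, the scaffold anillin of the contractile ring, had 7.205, 6.99 and 3.58 scaled TPM in untreated spheroids and 110.5, 79.6 and 111 in untreated monolayers (-3.90 ± 0.24, adjusted p = 5.17e-07). The smallest fall of the 6 was that of Racgap1, whose product forms the centralspindlin complex with the kinesin of Kif23 (-2.77 ± 0.18). The proliferation marker Mki67 had 1.26, 0.949 and 1.04 scaled TPM in untreated spheroids and 32.8, 25.1 and 33.7 in untreated monolayers (-3.91 ± 0.12, adjusted p = 1.3e-08). Foxm1, a transcription factor of the G2 genes, had 2.81, 2.75 and 3.68 scaled TPM in untreated spheroids and 43.01, 28.3 and 42.3 in untreated monolayers (-3.23 ± 0.17, adjusted p = 1.67e-07). Top2a, which untangles sister chromatids, kept 21.7 ± 7.66 scaled TPM in untreated spheroids, against 200.02 ± 18.04 in untreated monolayers, where it was the highest member.

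Outside the 50, 124 further mitosis genes in 8 lists moved the same way less evenly in untreated spheroids. These lists too were chosen with earlier results of these data known. Of the 124 genes, 84 fell (67.7%) and 11 rose (8.87%), where 27.7% and 27.6% of all genes tested did. All 8 condensin subunit genes fell, among them Ncapg (-3.25) and Smc2 (-2.78), as did 25 of 32 other centromere and kinetochore genes, 16 of 22 other spindle and cytokinesis genes with Cep55 (-3.84) and Tacc3 (-3.73), and 10 of 12 other mitotic kinases and their regulators and substrates with Nek2 (-3.12). Other lists were mixed. The median log2 fold change was -0.20 for core subunits of the anaphase-promoting complex, 0.0081 for cohesin genes and -0.41 for MuvB, MYB, E2F and DP regulators. Over all genes tested it was 0.0061. Of 14 core subunits of the anaphase-promoting complex 6 fell and 0 rose, with Anapc13 at -1.20 and Anapc1 at -1.10. Of 13 cohesin genes 5 fell, with Sgo1, which protects cohesin at centromeres, at -3.02, and 2 rose, Stag2 at 0.59 and Mau2 at 0.33. Of the 18 MuvB, MYB, E2F and DP regulators of mitotic genes 11 fell, with E2f8 at -3.03 and Mybl2, which encodes B-MYB, at -2.38, and 4 rose, Tfdp2 at 1.15, E2f2 at 0.76, Lin37 at 0.61 and E2f5 at 0.29. Zwint, a kinetochore gene, rose by 1.14 on the log2 scale, to 191 scaled TPM in untreated spheroids, against 86.3 in untreated monolayers.

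**Figure D3:**
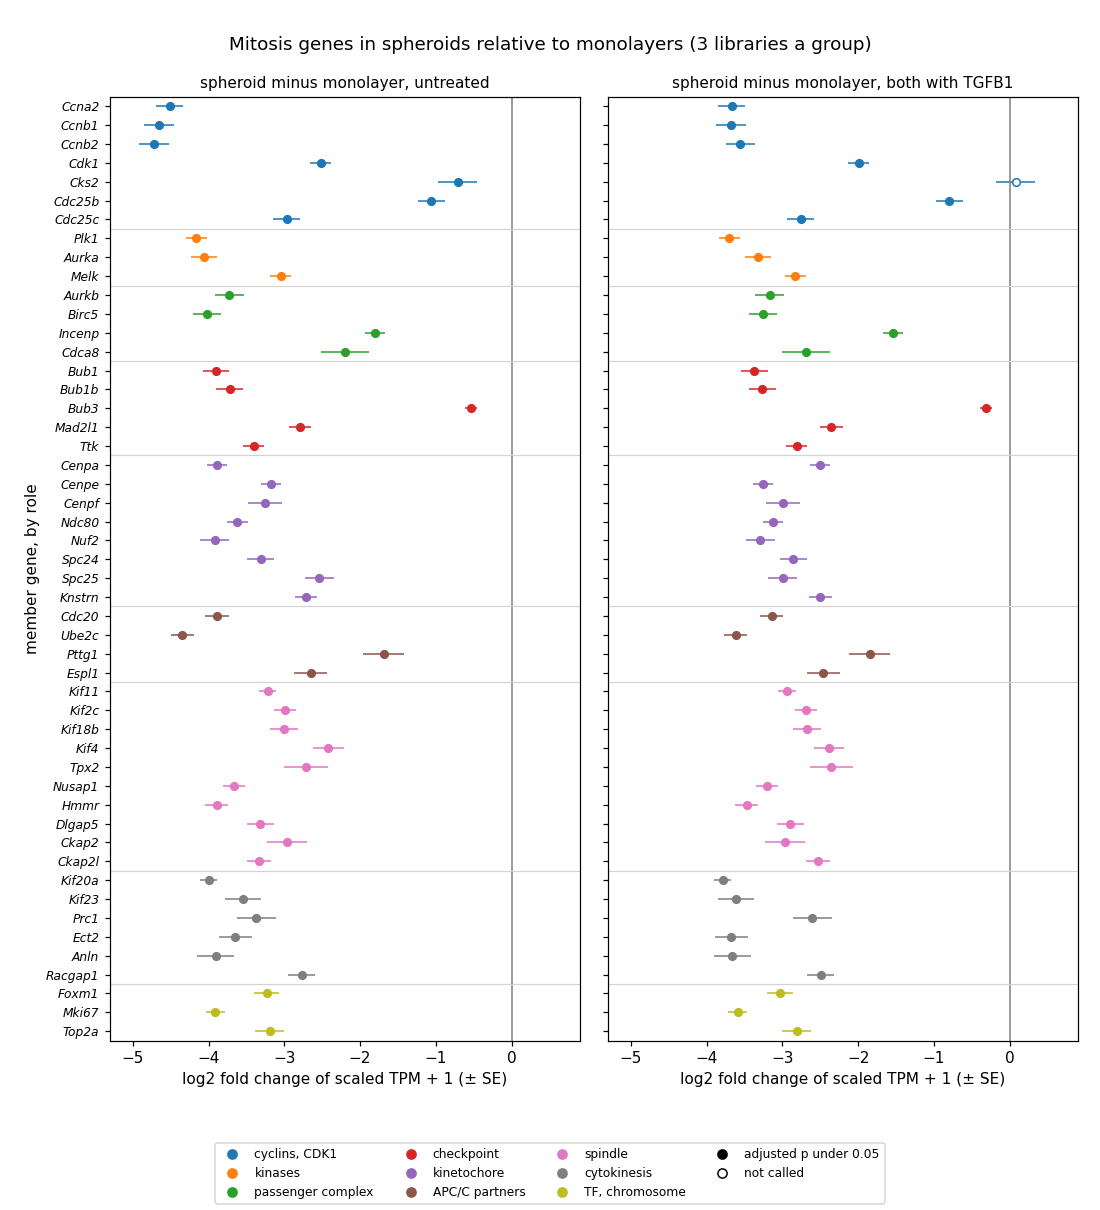
Log2 fold change of scaled TPM + 1 (horizontal axis, ± SE) of each member, for spheroids minus monolayers without TGFB1 (left) and with TGFB1 (right). Spheroid cells received TGFB1 before low-attachment culture. Each group has 3 libraries, and points are coloured by role and filled where the adjusted p is under 0.05. All 50 points lie left of 0 without TGFB1 and 49 with it, where Cks2 sits at 0.077.

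Between the TGFB1 groups, 49 members were again lower in spheroids and 0 rose, where 26.5% of all genes tested fell and 25.3% rose. The spheroid cells received TGFB1 before low-attachment culture, so the timing of TGFB1 differs between these groups along with the culture. The 7 members that passed the filter only through the monolayers had to differ here too. The median member level was 8.56% of that in TGFB1 monolayers, and the median log2 fold change was -2.95, against 0.0042 over all genes tested. This comparison uses other libraries than the untreated one but the same estimate of spread. Kif20a had 2.46, 2.92 and 3.29 scaled TPM in TGFB1 spheroids and 56.4, 52.4 and 49.1 in TGFB1 monolayers (-3.79 ± 0.11, adjusted p = 6.23e-09), the largest fall by log2 fold change. Plk1 had 2.69, 3.04 and 4.004 scaled TPM in TGFB1 spheroids and 56.5, 55.96 and 49.3 in TGFB1 monolayers (-3.70 ± 0.14, adjusted p = 1.38e-08). The cyclin genes Ccnb1, Ccna2 and Ccnb2 had log2 fold changes of -3.68, -3.67 and -3.55. Bub3 again fell least among the called members, with 76.6 ± 4.64 scaled TPM in TGFB1 spheroids and 95.8 ± 3.82 in TGFB1 monolayers (-0.32 ± 0.081, adjusted p = 0.00691). Cks2 was the exception, with 160.2, 142 and 132 scaled TPM in TGFB1 spheroids and 156, 129.8 and 127 in TGFB1 monolayers (0.077 ± 0.26, adjusted p = 0.822). Its groups overlapped, and the 95% interval of its log2 fold change ran from -0.49 to 0.65. The endothelial marker sum was 26.05 to 52.4 scaled TPM in TGFB1 spheroids and 1.84 to 2.32 in TGFB1 monolayers, and the granulosa and theca sum was 39.9 to 43.2 in TGFB1 spheroids and 30.3 to 33.4 in TGFB1 monolayers; their part in the result was not tested. Of the 124 further mitosis genes, 82 fell (66.1%) and 13 rose (10.5%), where 26.5% and 25.3% of all genes tested did. Cep55 at -3.32 and Gtse1 at -3.59 were among those that fell, and Stag2 (0.66), Ensa (0.51) and Zwint (0.45) among those that rose.

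TGFB1 before spheroid culture went with higher levels of many mitosis genes in the spheroids. The members had a median of 164% of the untreated spheroid level, 26 rose and 1 fell, where 18.8% of the genes tested rose and 16.8% fell. The median log2 fold change was 0.44 over the members and 0.0026 over all genes tested, and 44 of 50 members were above 0. The median member level in TGFB1 spheroids was still 8.56% of that in TGFB1 monolayers, although Cks2 averaged 145 scaled TPM in TGFB1 spheroids and 137 in TGFB1 monolayers. By log2 fold change Cenpa rose most, with 10.1, 12.7 and 11.8 scaled TPM in TGFB1 spheroids and 3.89, 4.14 and 3.39 in untreated spheroids (1.38 ± 0.13, adjusted p = 3.56e-05). The added 1 makes this scale understate the rise of members with levels near or under 1 scaled TPM. Among the cyclins and CDK1 regulators 5 of 7 rose. Cks2 had 160.2, 142 and 132 scaled TPM in TGFB1 spheroids and 93.7, 100.3 and 43.5 in untreated spheroids (0.95 ± 0.26, adjusted p = 0.0156). Ccnb1 had 2.68, 3.71 and 5.31 scaled TPM in TGFB1 spheroids and 1.29, 1.45 and 1.94 in untreated spheroids (0.91 ± 0.19, adjusted p = 0.0045). Ccnb2 had 3.22, 4.16 and 5.43 scaled TPM in TGFB1 spheroids and 2.902, 1.35 and 2.12 in untreated spheroids (0.76 ± 0.20, adjusted p = 0.012). The highest of the 3 TGFB1 values belonged to library 3 for both cyclins and to library 1 for Cks2. Cdk1 rose to 50.9 ± 5.44 scaled TPM in TGFB1 spheroids, against 33.4 ± 4.41 in untreated spheroids (0.60 ± 0.14, adjusted p = 0.00656). Cdc25b was the member that fell, with 6.26, 8.21 and 8.98 scaled TPM in TGFB1 spheroids and 12.5, 9.196 and 14.2 in untreated spheroids (-0.55 ± 0.18, adjusted p = 0.0351).

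All 3 kinase genes rose. Aurka had 2.403, 3.45 and 4.42 scaled TPM in TGFB1 spheroids and 1.36, 1.53 and 1.39 in untreated spheroids (0.84 ± 0.17, adjusted p = 0.00368), and Plk1 had 2.69, 3.04 and 4.004 scaled TPM in TGFB1 spheroids and 1.995, 1.52 and 1.71 in untreated spheroids (0.62 ± 0.14, adjusted p = 0.00581). Of the passenger complex, Aurkb, Birc5 and Incenp rose by 0.60, 0.57 and 0.54, while Cdca8 had 2.18, 2.15 and 4.84 scaled TPM in TGFB1 spheroids and 6.03, 5.64 and 2.08 in untreated spheroids and was not called (-0.43 ± 0.32, adjusted p = 0.315). Of the checkpoint genes, Bub1 rose by 0.75 ± 0.17 and Ttk by 0.59 ± 0.14, and the other 3 did not pass the test. Bub1 averaged 1.56 scaled TPM in TGFB1 spheroids and 0.507 in untreated spheroids, and Ttk averaged 1.22 and 0.465. At such levels the added 1 makes the log2 fold change understate the rise. Ube2c had 6.31, 8.18 and 9.48 scaled TPM in TGFB1 spheroids and 4.61, 3.57 and 4.17 in untreated spheroids (0.80 ± 0.15, adjusted p = 0.00243), and Cdc20 rose by 0.57 ± 0.15. Of the 10 spindle genes 5 rose, led by Ckap2l, a spindle protein with 2.51, 3.82 and 3.999 scaled TPM in TGFB1 spheroids and 1.34, 1.36 and 1.18 in untreated spheroids (0.94 ± 0.16, adjusted p = 0.00122). Of the 6 cytokinesis genes only Kif20a passed (0.40 ± 0.11, adjusted p = 0.0173), and of the remaining trio only Mki67 did (0.43 ± 0.12, adjusted p = 0.0196).

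The size of this rise depends on the scaling and on single libraries. Without TGFB1 spheroid 2, 17 members rose and 0 fell, and without TGFB1 spheroid 3, 16 rose, while Cdc25b was not called either without TGFB1 spheroid 1, untreated spheroid 1 or untreated spheroid 3. Scaled to equal column sums, 16 rose, the median of all genes moved by -0.16 and the share of calls that were higher was 29.8%, against 52.9% as deposited; 44 members lay above the median of all genes under both scalings. TGFB1 spheroids 2 and 3 are also the libraries with the highest mitochondrial share, and TGFB1 spheroid 1, with 7.24%, was the lowest of its group in 38 of 50 members and in 40.2% of all genes tested; the part of this in the result was not tested. The endothelial marker sum was 26.05 to 52.4 scaled TPM in TGFB1 spheroids and 2.54 to 7.12 in untreated spheroids. Cdh5 averaged 35.97 in TGFB1 spheroids and 1.84 in untreated spheroids, with Cldn5 and Kdr near 0. The fibroblast and stroma sum was 420 to 1093 in TGFB1 spheroids and 271 to 285 in untreated spheroids. Of its genes, Dcn averaged 637 in TGFB1 spheroids and 245 in untreated spheroids, while Thy1 averaged 15.6 and 23.8. The granulosa and theca sum was 39.9 to 43.2 in TGFB1 spheroids and 64.9 to 68.2 in untreated spheroids. Of its genes, Inha averaged 10.04 in TGFB1 spheroids and 38.9 in untreated spheroids, while Foxl2 averaged 30.8 and 25.8. The part of these sums in the result was not tested. Of the 124 further mitosis genes 17 rose (13.7%) and 11 fell (8.87%), both smaller shares than the 18.8% and 16.8% of all genes tested, with the DP partner Tfdp1 (0.47), Tacc3 (0.74) and Kntc1 (0.70) among those that rose and Pbk (-1.36), Kif22 (-1.22) and Tfdp2 (-1.14) among those that fell.

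In monolayers, TGFB1 changed 1 member. Cdc25b had 12.8, 15.03 and 14.7 scaled TPM in TGFB1 monolayers and 25.6, 21.2 and 30.9 in untreated monolayers (-0.81 ± 0.18, adjusted p = 0.0117), and without untreated monolayer 3 it was not called. In limma 0 members rose and 1 fell, where 9.12% of the genes tested rose and 7.79% fell, and 2 members had an unadjusted p under 0.05, against 30.8% of all genes tested. The median level was 103% of untreated, the median log2 fold change was 0.051 over the members and 0.013 over all genes tested, and the groups overlapped in 44 of 50 members and in 52.5% of all genes tested. Cenpe, a kinetochore motor, had 18.01, 17.8 and 15.8 scaled TPM in TGFB1 monolayers and 13.9, 11.8 and 13.6 in untreated monolayers (0.37 ± 0.13, adjusted p = 0.0807), and it was called higher without untreated spheroid 3, which alters only the shared estimate of spread. Ccnb2 had 52.05, 66.8 and 62.1 scaled TPM in TGFB1 monolayers and 86.5, 70.96 and 82.8 in untreated monolayers (-0.41 ± 0.20, adjusted p = 0.19), so its 3 TGFB1 values lay below the 3 untreated ones without passing the test. Of the 124 further mitosis genes 8 rose (6.45%) and 3 fell (2.42%), where 9.12% and 7.79% of all genes tested did. Mybl1 (0.80) and Cenpt (0.72) were among those that rose, and Anapc1 (-0.75) and Anapc13 (-0.64) among those that fell.

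**Figure D4:**
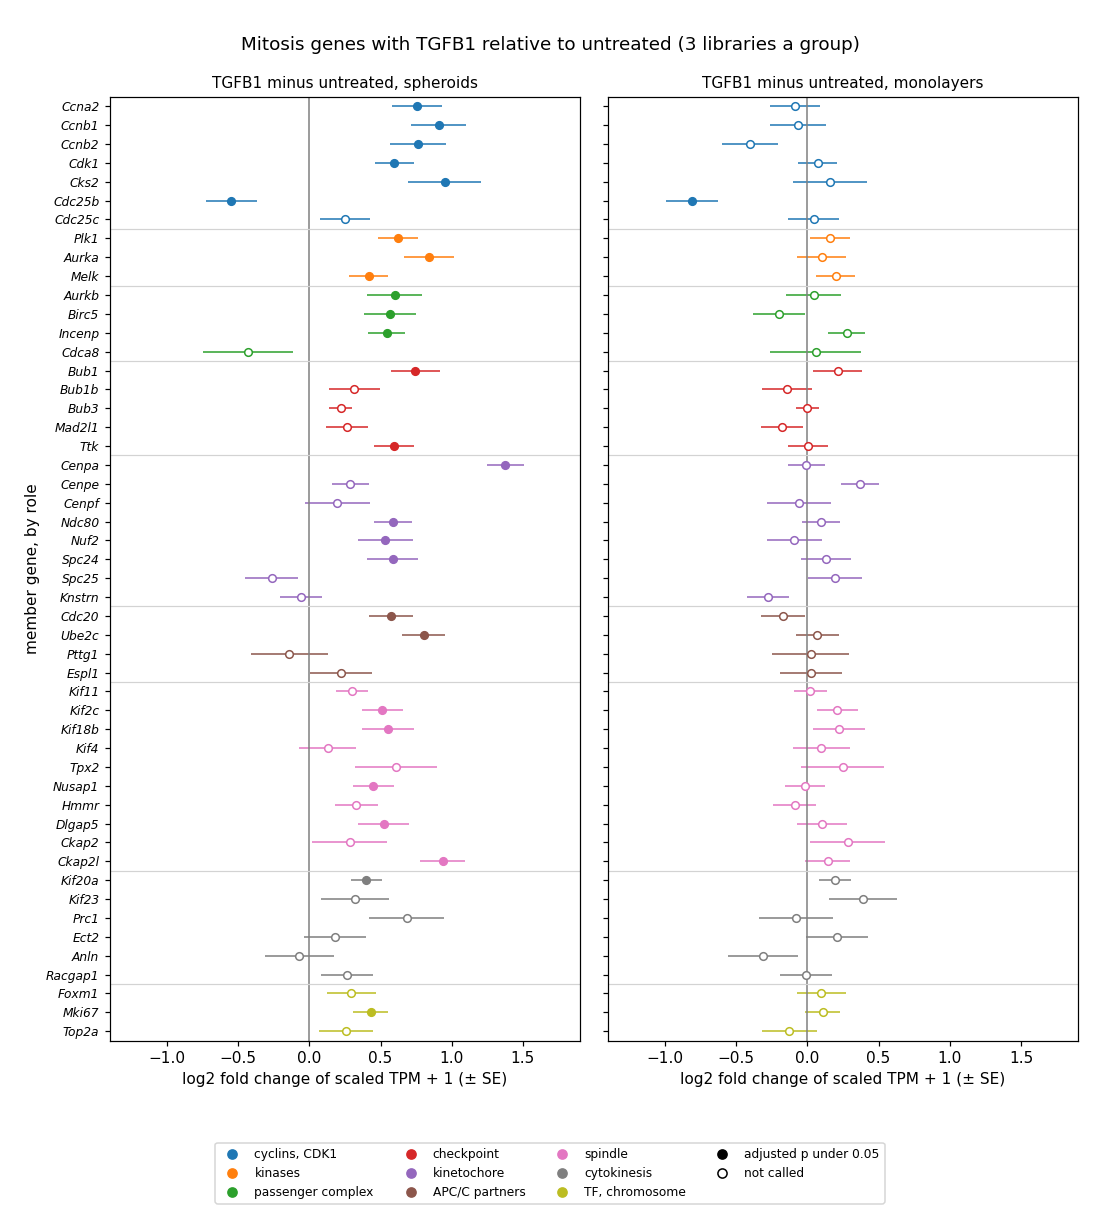
Log2 fold change of scaled TPM + 1 (horizontal axis, ± SE) of each member for TGFB1 minus untreated, in spheroids (left) and in monolayers (right), 3 libraries per group, coloured by role, filled where the adjusted p is under 0.05. In spheroids 26 filled points lie right of 0 and Cdc25b left of it, and in monolayers Cdc25b is the single filled point.

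The difference between the effects of TGFB1 in the 2 cultures was tested as an interaction. Spheroid cells received TGFB1 before low-attachment culture, so culture and the timing of TGFB1 cannot be told apart in it. For 7 members the effect was higher in spheroids than in monolayers and for 0 lower, where the same was found for 8.72% and 7.11% of all genes tested. The median interaction was 0.37 over the members and -0.0093 over all genes tested. Cenpa gave the largest, 1.39 ± 0.19, adjusted p = 0.000896, followed by Ccnb2 with 1.17 ± 0.28, adjusted p = 0.017 and Ccnb1 with 0.97 ± 0.27, adjusted p = 0.0356. Ccna2, Ckap2l, Cdc20 and Ube2c gave 0.84, 0.79, 0.75 and 0.73, with adjusted p-values between 0.0346 for Ckap2l and 0.043 for Ccna2. Cdc25b fell in both cultures and its interaction did not pass the test (0.26 ± 0.25, adjusted p = 0.532). Only Cenpa and Ccnb2 kept the call whichever of the 12 libraries was left out. The count was 2 without untreated monolayer 1, untreated monolayer 3, TGFB1 monolayer 2 or TGFB1 monolayer 3, and 3 without untreated spheroid 1, untreated spheroid 2, TGFB1 spheroid 2 or TGFB1 spheroid 3. It was 11 without untreated monolayer 2 and 12 without TGFB1 spheroid 1. Scaled to equal sums it was 2, with a shift of -0.20 in the median of all genes and 27.6% of calls higher, against 55.1% as deposited.

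Snail changed no member detectably. In limma 0 members rose and 0 fell at an adjusted p under 0.05, where 0.572% of the 12240 genes tested rose and 1.14% fell, and 0 members had an unadjusted p under 0.05, against 14.8% of all genes tested. In the authors' deposited table the lowest q-value of a member was 0.531, so 0 members pass there too. Member log2 fold changes ran from -0.19 for Espl1 to 0.25 for Ckap2, with a median of 0.066, against 0.011 over all genes tested. Ccnb1 had 95.2, 91.2 and 108 scaled TPM in Snail libraries and 95.3, 112 and 90.1 in WPI libraries, and the 95% interval of its log2 fold change ran from -0.24 to 0.21. Mki67 had 60.2, 49.2 and 60.04 scaled TPM in Snail libraries and 61.4, 58.1 and 52.4 in WPI libraries, with an interval from -0.25 to 0.20. The groups overlapped in all 50 members and in 79.4% of all genes tested. Ckap2, a microtubule-associated protein and the member with the lowest p, had 41.6, 44.1 and 56.5 scaled TPM in Snail libraries and 38.1, 43.7 and 36.2 in WPI libraries (0.25 ± 0.12, adjusted p = 0.407). Libraries of 1 group differed in step: Snail 3 had the highest value of its group in 46 members and WPI 2 in 48, against 33.8% and 40.9% of all genes tested. Of the 124 further mitosis genes 0 rose and 0 fell in limma.

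Most mitosis genes were lower in the libraries labelled BRCA1_ko than in those labelled BRCA1_wt, but the libraries of both groups differed widely. Members stood at a median of 45.2% of the BRCA1_wt level, 49 of 50 were below 0 and the median log2 fold change was -1.28, while the median over all genes tested was 0.17. In limma 7 members fell and 0 rose, where 5.27% of the 12775 genes tested fell and 9.04% rose. An unadjusted p under 0.05 was found for 35 members, all of them lower. It was found for 41.3% of all genes tested, and for 16.4% with a lower level. At a q-value under 0.05 in the authors' deposited table, 34 members are lower, where 12.2% of its 15437 genes are, 0 are higher, and the median coefficient as log2 is -1.70. Ube2c had 54.6, 126 and 31.1 scaled TPM in BRCA1_ko and 459, 181 and 594 in BRCA1_wt libraries (-2.59 ± 0.61, adjusted p = 0.038). Spc24 had 14.5, 29.3 and 9.16 scaled TPM in BRCA1_ko and 95.9, 35.04 and 109 in BRCA1_wt libraries (-2.11 ± 0.54, adjusted p = 0.0461). Cks2 had 51.3, 96.1 and 43.4 scaled TPM in BRCA1_ko and 297, 136 and 408 in BRCA1_wt libraries (-2.07 ± 0.47, adjusted p = 0.0354). In each of these BRCA1_wt 1 and BRCA1_wt 3 were far above BRCA1_wt 2, and BRCA1_ko 2 was the highest of its group. Cdca8 (-1.78 ± 0.44, adjusted p = 0.0435), Plk1 (-1.73 ± 0.45, adjusted p = 0.0463), Knstrn, a kinetochore and spindle protein (-1.69 ± 0.44, adjusted p = 0.0463), and Incenp (-1.59 ± 0.40, adjusted p = 0.0441) also fell. Plk1 had 22.05, 46.1 and 13.4 scaled TPM in BRCA1_ko and 89.3, 59.8 and 104 in BRCA1_wt libraries. Ect2, which activates the GTPase RHOA at the cleavage furrow, was the member above 0, with 57.2, 94.9 and 36.2 scaled TPM in BRCA1_ko and 36.5, 124 and 24.5 in BRCA1_wt libraries, and was not called (0.27 ± 0.62, adjusted p = 0.753).

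None of the 7 calls held in every other fit. Without BRCA1_ko 1, BRCA1_ko 3, BRCA1_wt 1 or BRCA1_wt 3, 0 members fell, without BRCA1_ko 2, 1 did, and without BRCA1_wt 2, 26 did. Scaled to equal sums 1 fell, with a shift of 0.46 in the median of all genes and 80.3% of calls higher, and scaled by median ratios 16 fell, with a shift of -0.18 and 52.7% of calls higher, against 63.2% as deposited. Relative to the median of all genes, 49 members were lower under both scalings as in the deposited values. The order of the BRCA1_ko libraries was the same in all 50 members, with BRCA1_ko 2 above BRCA1_ko 1 above BRCA1_ko 3, an order that 30.1% of all genes tested had, and BRCA1_ko 2 had a median of 2.55 times the mean of the other two. Against BRCA1_wt 2, members stood at a median of 41.4% in BRCA1_ko 1, 85.0% in BRCA1_ko 2 and 26.5% in BRCA1_ko 3. BRCA1_ko 1 and BRCA1_ko 3 were below every BRCA1_wt library in 47 members and in 23.8% of all genes tested. BRCA1_ko 2 lay within the BRCA1_wt range in 16 members and in 40.5% of all genes tested. It was below every BRCA1_wt library in 29 members. In these 29 the whole BRCA1_ko group lay below the BRCA1_wt group, as it did in 18.3% of all genes tested.

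The BRCA1_wt libraries 1 and 3 differed from BRCA1_wt 2 along the length of the gene's exons. Over all genes tested, Spearman's rho across genes between exonic length and the log2 ratio was 0.022, 0.0030 and 0.026 for BRCA1_ko 1, BRCA1_ko 2 and BRCA1_ko 3, against -0.51 for BRCA1_wt 1 and -0.45 for BRCA1_wt 3, all relative to BRCA1_wt 2. The 5 members shorter than 2.5 kb had a median log2 ratio of 0.68 in BRCA1_wt 1 and 0.78 in BRCA1_wt 3. The 23 members from 2.5 to under 5 kb had 0.058 and -0.030, and the 22 of 5 kb or longer had -0.099 and 0.21. Over all genes tested the medians, from short to long, were 0.49, -0.14 and -0.67 in BRCA1_wt 1. In BRCA1_wt 3 they were 0.69, -0.17 and -0.73. Across the members alone, rho was -0.43 for BRCA1_wt 1 and -0.28 for BRCA1_wt 3. The 7 called members were 692 to 5177 bases long, with a median of 2600, against a median of 4919 for those not called. With BRCA1_wt 1 and BRCA1_wt 3 both left out, 0 members fell, while 382 genes of the table were called higher and 238 lower. That fit has 1 BRCA1_wt library, which is assumed to vary like the 3 BRCA1_ko libraries that alone give the spread. With a loess fit on length removed from each library 22 members fell, where 1248 genes were called higher and 1118 lower. Both fits were added after these values had been seen. The granulosa and theca marker sum was 129 to 225 scaled TPM in BRCA1_ko and 46.4 to 50.2 in BRCA1_wt libraries, and the fibroblast and stroma sum was 805 to 952 in BRCA1_ko and 372 to 645 in BRCA1_wt libraries. The endothelial sum was 8.1003 to 14.7 in BRCA1_ko and 5.91 to 7.93 in BRCA1_wt libraries, and the oocyte sum was 1.399 to 2.06 in BRCA1_ko and 10.96 to 25.6 in BRCA1_wt libraries. In all 3 libraries of BRCA1_ko and of BRCA1_wt, 2 and 1 of the 7 granulosa and theca markers reached 1 scaled TPM. The counts were 4 and 3 of 7 for fibroblast and stroma, 2 and 1 of 7 for endothelial, and 0 and 1 of 5 for oocyte markers. The part of these sums in the result was not tested. Of the 124 further mitosis genes 12 fell (9.68%) and 0 rose, where 5.27% of all genes tested fell and 9.04% rose. Cenpk (-2.34), Ska1 (-2.01), Kif22 (-1.86) and E2f1 (-1.56) were among those that fell.

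**Figure D5:**
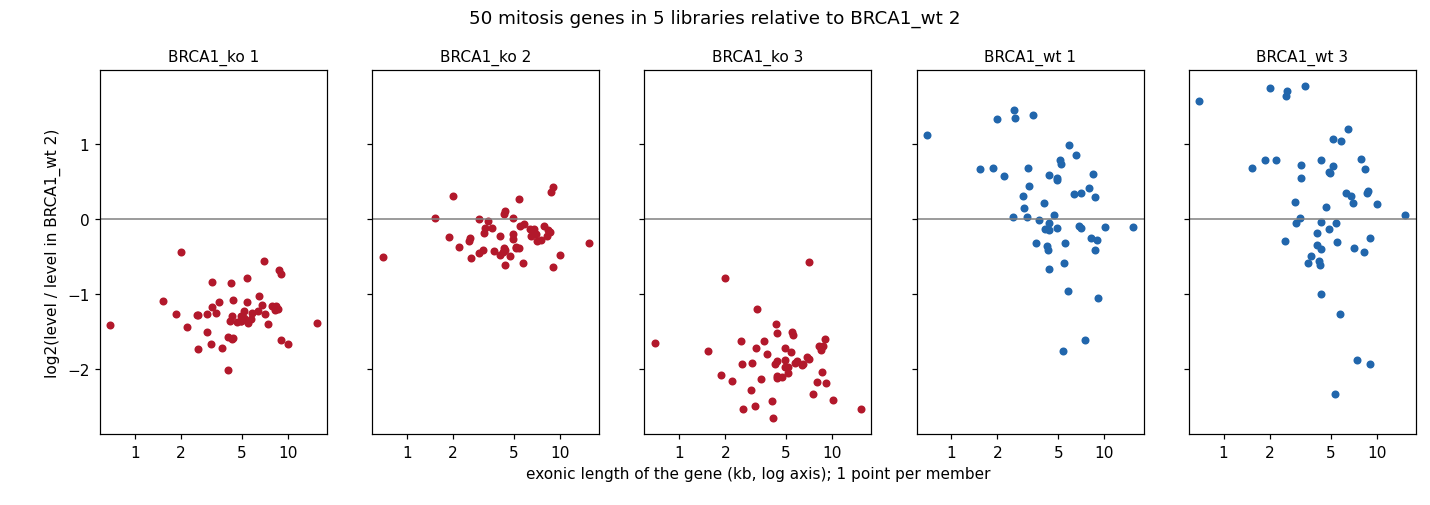
Log2 ratio of each member's scaled TPM to that in BRCA1_wt 2 (vertical axis) against exonic length in kb (log axis), in 5 panels for the other BRCA1 libraries, with 1 point per member. BRCA1_ko 1 and BRCA1_ko 3 lie below 0 along the whole axis, and BRCA1_ko 2 lies nearer to 0 and mostly below it. BRCA1_wt 1 and BRCA1_wt 3 scatter above and below 0, with the 5 members shorter than 2.5 kb all above it.

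The members also moved together between libraries of 1 group, where the labels give no difference. Untreated monolayer 2 had the lowest value of its group in all 50 members, although 33.7% of all genes tested had their lowest value there, and its members summed to 2042 scaled TPM, against 2654 and 2637 in untreated monolayers 1 and 3. TGFB1 monolayer 3 was the lowest of its group in 37 members, against 32.02% of all genes tested. TGFB1 spheroid 3 was the highest of its group in 34 members, against 30.3% of all genes tested. In untreated spheroids the extremes were spread over the libraries, which held the highest value of 19, 17 and 14 members. The member sums were 465 to 529 scaled TPM in TGFB1 spheroids, 315 to 379 in untreated spheroids, 2303 to 2549 in TGFB1 monolayers and 2042 to 2654 in untreated monolayers, so the gap between cultures exceeded the spread inside any group. Cks2, Cdk1 and Bub3 made up 79.2, 33.4 and 65.7 scaled TPM of the untreated spheroid sum on average.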

How the data were processed

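RNA of 24 libraries was measured by sequencing after poly(A) selection and a strand-specific kit, per the labels' protocols. Tools named in the submitters' processing notes are kallisto 0.44.0 and sleuth 0.30.0, with GRCm38 as the mouse build. For each experiment the authors deposited signal values headed as TPM, called scaled TPM here because the columns do not sum to 1000000, while TPM as such had been planned for the test. The authors' own comparisons were deposited with a p-value, a q-value and natural log coefficients, which are quoted here after division by ln 2; for monolayers and spheroids a single p-value covers 3 terms, so those calls were not used. No read counts were used, the depth is unknown and no counting error can be given.

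Values were analysed as log2(scaled TPM + 1) with limma 3.58.1 in R 4.3.3 (lmFit, eBayes with a variance trend), two-sided, for genes with at least 1 scaled TPM in at least 3 libraries of a table: 13509, 12240 and 12775 genes. One fit with group means covered the 12 libraries of monolayers and spheroids, and the 6 Snail and 6 BRCA1 libraries had a fit each, with Benjamini-Hochberg adjustment over all genes tested and no covariate. The tables were normalized separately, so no level is compared between them. The fit was tested on simulated data. Python 3.11.15 with pandas 2.3.3 and matplotlib 3.10.9 read gene models from GENCODE M21 (GRCm38) and promoters from RefSeq (GRCm38.p6). The 50 members, their roles and the further lists were chosen with earlier results of these data known. Members named with all values are those with the largest log2 fold change of each role in a comparison, up to 3 of those called, and those called the other way or not called where most are. Because of the added 1, members at low levels can rank lower in this choice than by the ratio of their levels. Further lists are given as counts with the largest called genes and those called the other way. Alternatives were another filter, pseudocount, scaling, library quality weights, a replicate block, fewer libraries, and, added after seeing the data, BRCA1_wt 1 and BRCA1_wt 3 left out and a loess fit on exonic length.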

Additional observations from a re-analysis of the deposited data

Results flagged for a closer look

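For 7 members the effect of TGFB1 differed between spheroids and monolayers by the interaction test in limma (adjusted p under 0.05 over all genes tested). The interaction, as a log2 fold change in spheroids minus that in monolayers, was 1.39 for Cenpa, from 1.38 in spheroids and -0.0088 in monolayers. It was 1.17 for Ccnb2 (0.76 in spheroids, -0.41 in monolayers), 0.97 for Ccnb1 (0.91, -0.066) and 0.84 for Ccna2 (0.76, -0.085). It was 0.79 for Ckap2l (0.94, 0.14), 0.75 for Cdc20 (0.57, -0.17) and 0.73 for Ube2c (0.80, 0.069). The pairs in parentheses share their control groups with the comparisons of culture. Culture and the timing of TGFB1, which spheroid cells received before low-attachment culture, cannot be told apart here. Groups of 3 libraries are too small for a test of single outlying libraries.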

How the results depend on the processing

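The fall of the members in spheroids held under each alternative tried: 49 or 50 fell without TGFB1, with Cks2 the exception, and 49 with TGFB1, while their median log2 fold change moved from -3.31 to -4.15 at a pseudocount of 0.1 and to -3.70 at 0.5 without TGFB1, and from -2.95 to -3.49 and -3.22 with it. The count of 0 for Snail also held in each. In TGFB1 monolayers the counts higher and lower were 2 and 5 with library quality weights (25.2% and 22.4% of all genes) and 1 and 3 in a fit of the 6 libraries compared, and each ran from 0 to 1 when 1 library was left out. In TGFB1 spheroids 16 members rose after scaling to equal sums, 7 in a fit of the 6 libraries compared and 16 to 28 with 1 library left out; the count lower was 0 without a filter, with weights and in the 6 libraries, and 0 to 1 with 1 library left out. Of the 27 called, 15 kept the call whichever library was left out and 7 under every other setting. The interaction gave 2 members without a filter, 11 at a pseudocount of 0.1, 2 at equal sums, 21 with weights (17.3% of all genes), 3 with the replicate block and 2 to 12 with 1 library left out. For BRCA1_ko, 0 members fell without a filter, 3 at a minimum of 5 scaled TPM, 4 at a pseudocount of 0.1, 1 at equal sums, 16 at median ratios, 47 with weights (and 1, Ect2, rose), where 36.7% of all genes fell and 53.6% rose, 0 with the replicate block, 0 without BRCA1_wt 1 and BRCA1_wt 3 (a fit with 1 BRCA1_wt library, assumed to vary like BRCA1_ko), 22 with the loess fit on length and 0 to 26 with 1 library left out. The weights did not converge fully in every table. The replicate numbers do not pair the libraries: no comparison had all 3 correlations of same-numbered deviations over 0.1, and they ran from -0.32 to 0.33. Over all genes, leaving out 1 library gave 5 to 25 genes higher and 18 to 49 lower for Snail, against 70 and 140, and 33 to 5081 and 24 to 3214 for BRCA1_ko, against 1155 and 673. In TGFB1 monolayers it gave 692 to 1520 and 521 to 1304, against 1232 and 1052, in TGFB1 spheroids 1660 to 2607 and 1435 to 2332, against 2544 and 2266, and for the interaction 709 to 1439 and 597 to 1219, against 1178 and 960. No called member changed sign under any setting. The cause of these differences was not tested beyond the alternatives themselves. Levels under 1 scaled TPM, frequent in spheroids, limit the precision of the smallest values.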
